A study of Mus musculus with 5 samples.

Results

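The mouse major satellite, listed as GSAT_MM, and the minor satellite, listed as SATMIN, were followed through 5 sequencing libraries of mouse embryonic fibroblasts. They are 2 of the 13 satellite families for which reads were counted, and were chosen by name because they are the repeats of the pericentromere and the centromere. γH2AX, the phosphorylated form of the histone H2AX that marks chromatin around broken DNA and stalled replication forks, was immunoprecipitated and the bound DNA was sequenced (ChIP-seq). The cells were primary embryonic fibroblasts, proliferating at passage 4, of genotype Rb+/+ (both copies of the retinoblastoma gene normal), RbΔL/+ (1 copy with the ΔL alteration, an alteration of the pocket cleft where partners carrying an LXCXE motif dock), RbΔL/ΔL (both copies with ΔL) or Rb-/- (no functional copy). Each genotype had 1 γH2AX library, and the remaining library was input DNA that had not been immunoprecipitated. The labels give no genotype for the input, and do not say how many embryos a library came from.

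Mouse chromosomes carry their centromere close to one end. The major satellite forms long tandem arrays beside the centromere, and these arrays cluster in the nucleus as dense heterochromatin. The minor satellite is the shorter array on which the centromeric nucleosomes and the kinetochore are built. The retinoblastoma protein represses E2F target genes, and through its LXCXE-binding cleft and E2F1 it can also hold condensin II, a complex that compacts chromosomes, at such repeats. The title of the series names that complex together with replication stress, and the comparison asked of these counts is whether γH2AX at centromeric repeats differs between genotypes. Both repeats were counted as whole families, so no single array, chromosome or coordinate can be named for a read.

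Library totals ran from 13731924 counts in RbΔL/+ to 17896985 in Rb+/+, over 12 classes that include a line for the unique genome. GSAT_MM rested on at least 399541 counts in each library and SATMIN on at least 7022, so the shares of GSAT_MM are known far more closely than those of SATMIN. With 1 library per genotype there was no test between genotypes, and differences have no replicate check. Intervals in parentheses are 95% intervals for counting error only, because each comes from the counts of single libraries. The reads carried no molecular identifiers and may repeat the same molecule, in which case these intervals are too narrow. A share is relative to the rest of its library and does not give the amount of γH2AX per cell.

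GSAT_MM was less abundant in each γH2AX library than in the input. Of all counts, GSAT_MM was 3.73% in the input (3.72 to 3.73), on 640132 counts. In Rb+/+ it was 2.48% (2.47 to 2.49), on 443992 counts. The Rb+/+ library was thus the lowest of the 5 for the major satellite. From high to low, the mutants had 2.98% for RbΔL/ΔL (2.97 to 2.99), 2.91% for RbΔL/+ (2.901 to 2.92) and 2.89% for Rb-/- (2.88 to 2.898). The mutant libraries lay between Rb+/+ and the input and near one another, and no 2 of the 5 intervals overlapped.

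SATMIN was far rarer and had another order of libraries. It made up 0.0526% of all counts in the input (0.0515 to 0.0537), on 9038 counts. The Rb+/+ library was again the lowest, at 0.0463% (0.0453 to 0.0473) on 8279 counts. RbΔL/+ had 0.0511% (0.0499 to 0.0523) on 7022 counts and RbΔL/ΔL had 0.0505% (0.0494 to 0.0516) on 8109 counts. These 2 neighbours in the order did not differ beyond counting error. Rb-/- had the highest share, at 0.0595% (0.0583 to 0.0607) on 9937 counts, and was the one γH2AX library above the input.

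**Figure D1:**
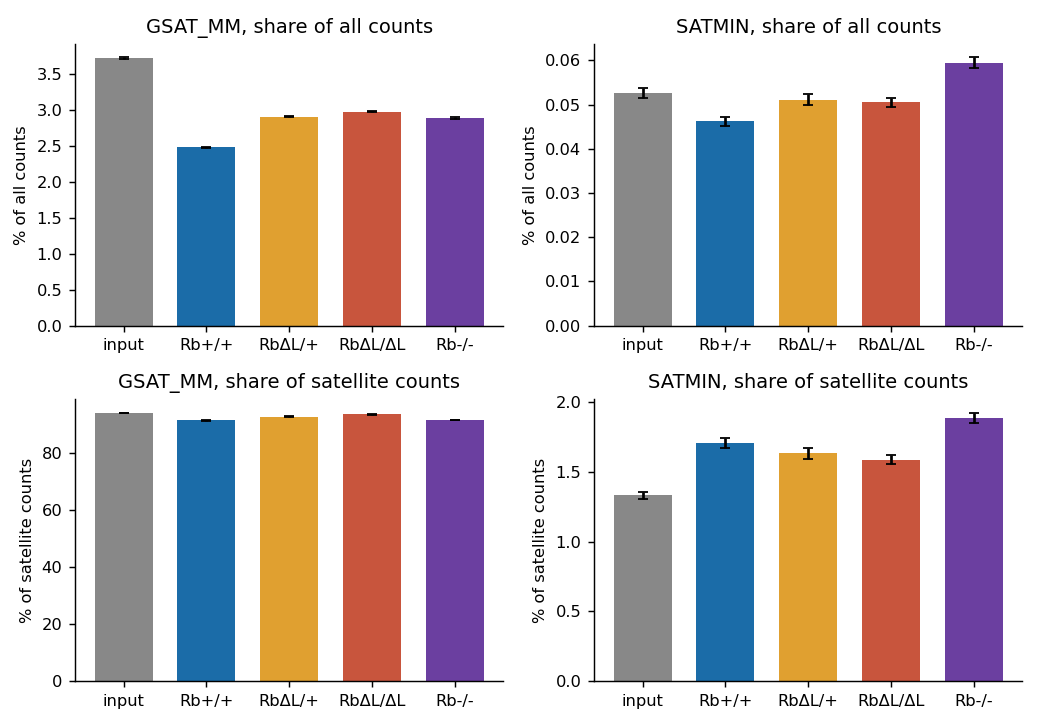
Bars give GSAT_MM (left) and SATMIN (right) as a percentage of all counts (top) and of satellite counts (bottom) in each of the 5 libraries, with exact 95% binomial intervals. GSAT_MM is highest in the input at 3.73% of all counts and lowest in Rb+/+ at 2.48%, whereas SATMIN is highest in Rb-/- at 0.0595%.

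Relative to input, the major satellite was lower in each genotype, furthest in Rb+/+. The ratio of its share to that of the input was 0.666 in Rb+/+ (0.663 to 0.668), and 0.781 in RbΔL/+ (0.778 to 0.784). It was 0.776 in Rb-/- (0.773 to 0.779) and 0.7997 in RbΔL/ΔL (0.797 to 0.803). For the minor satellite the ratio was 0.879 in Rb+/+ (0.854 to 0.906) and 0.960 in RbΔL/ΔL (0.931 to 0.989), although the latter became 1.04 as a share of repeat counts only. In RbΔL/+ it was 0.972 (0.942 to 1.003), an interval that includes 1, and in Rb-/- it was 1.13 (1.099 to 1.16). As a share of all counts, the minor satellite therefore stood closer to its input level than the major satellite did in each of the 4 γH2AX libraries. As a share of satellite counts the order was the reverse. That reversal follows largely from the scale, because GSAT_MM held 94.3% of satellite counts in the input. Its share of them could change little in relative terms, and a lower GSAT_MM share raises that of the other families. All 4 ratios use the same input library.

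The other 11 satellite families, 5 of which had more than 3 counts in any library, were summed for comparison. Together they stood at 1.05 times the input for Rb+/+ (1.04 to 1.07), 0.985 for RbΔL/+ (0.969 to 1.002), 0.863 for RbΔL/ΔL (0.848 to 0.878) and 1.15 for Rb-/- (1.14 to 1.17). GSAT_MM held 94.3% of the satellite counts in the input, so its difference made up nearly all of that in the satellite class. The difference of its share from the input was -1.25 percentage points for Rb+/+, -0.816 for RbΔL/+, -0.746 for RbΔL/ΔL and -0.835 for Rb-/-, which is 96.7% to 104% of the difference in the satellite class. Values above 100% arise where the other families lay on the other side of the input.

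**Figure D2:**
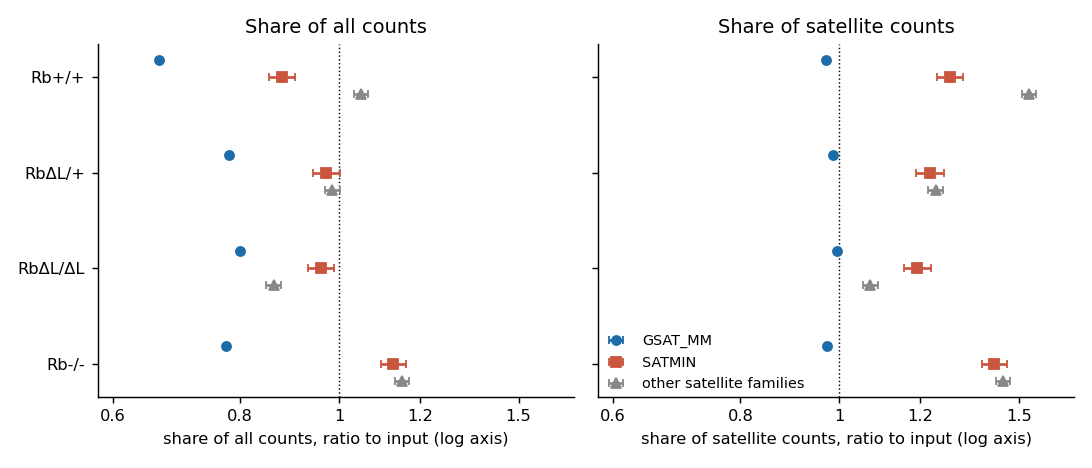
Points give the ratio to input of the share of all counts (left) and of satellite counts (right) for GSAT_MM, SATMIN and the sum of the other satellite families in the 4 γH2AX libraries, on log axes, with 95% counting intervals. GSAT_MM lies left of 1 in each library on both scales, and SATMIN lies between 1.19 and 1.42 on the satellite scale.

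Within the satellite counts alone, the balance between the repeats also differed from the input. GSAT_MM held 94.3% of satellite counts in the input (94.2 to 94.3), 93.7% in RbΔL/ΔL (93.7 to 93.8), 92.9% in RbΔL/+ (92.9 to 93.004), 91.8% in Rb-/- (91.7 to 91.9) and 91.6% in Rb+/+ (91.5 to 91.7). SATMIN held 1.33% in the input (1.304 to 1.36), 1.59% in RbΔL/ΔL (1.55 to 1.62), 1.63% in RbΔL/+ (1.596 to 1.67), 1.71% in Rb+/+ (1.67 to 1.74) and 1.89% in Rb-/- (1.85 to 1.93). On this scale Rb+/+ was no longer the lowest library for SATMIN and lay above both ΔL libraries.

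The count ratio of GSAT_MM to SATMIN needs no library total. There were 70.8 counts of GSAT_MM for each SATMIN count in the input (69.4 to 72.3). The γH2AX libraries had 59.02 in RbΔL/ΔL (57.7 to 60.3), 56.9 in RbΔL/+ (55.6 to 58.3), 53.6 in Rb+/+ (52.5 to 54.8) and 48.6 in Rb-/- (47.6 to 49.6). Each γH2AX library was therefore shifted toward the minor satellite, least in RbΔL/ΔL and most in Rb-/-. Against the input, the ratio was 0.833 times as large in RbΔL/ΔL (0.808 to 0.859), 0.803 times in RbΔL/+ (0.778 to 0.829), 0.757 times in Rb+/+ (0.735 to 0.780) and 0.686 times in Rb-/- (0.667 to 0.706). How a read that fits many copies was counted is not given in the sources used here, so levels of the 2 repeats within a library are those of the authors' counting, and array lengths were not used.

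**Figure D3:**
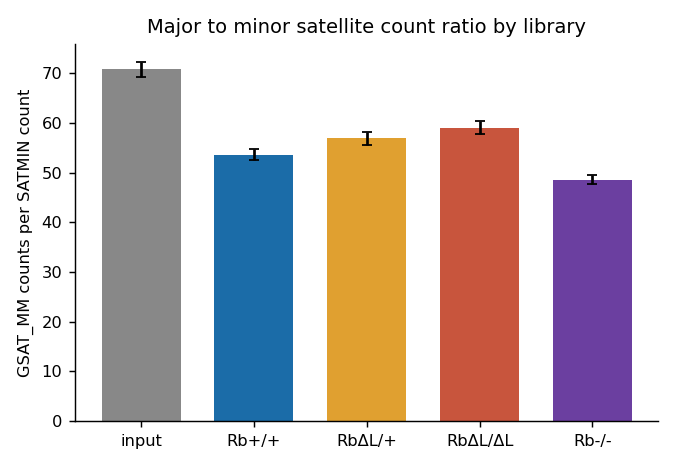
Bars give the number of GSAT_MM counts for each SATMIN count in the 5 libraries, with 95% counting intervals. The input stands highest at 70.8, RbΔL/ΔL is the highest γH2AX library at 59.02 and Rb-/- is the lowest at 48.6.

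Set against the Rb+/+ library, the major satellite was higher in the 3 mutant libraries by similar factors. GSAT_MM stood at 1.17 times Rb+/+ for RbΔL/+ (1.17 to 1.18), 1.201 for RbΔL/ΔL (1.196 to 1.21) and 1.17 for Rb-/- (1.16 to 1.17). In percentage points of all counts it was higher by 0.429 for RbΔL/+, 0.499 for RbΔL/ΔL and 0.410 for Rb-/-. In each mutant this was the largest gain of any of 14 lines. These lines are obtained when GSAT_MM, SATMIN and the other satellite families replace the satellite class. Points weigh a line by its size, and GSAT_MM was the largest repeat line in Rb+/+, at 2.48% of all counts. By ratio it took places 11, 16 and 14 of 18 features from the lowest for RbΔL/+, RbΔL/ΔL and Rb-/-. The unique genome had the largest loss in each mutant, at -0.804, -0.272 and -0.832 points in the same order.

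SATMIN was also higher than in Rb+/+ in each mutant library, most in Rb-/-. It stood at 1.11 times Rb+/+ for RbΔL/+ (1.07 to 1.14), 1.09 for RbΔL/ΔL (1.06 to 1.13) and 1.29 for Rb-/- (1.25 to 1.32). The count ratio of GSAT_MM to SATMIN was 1.06 times the Rb+/+ ratio in RbΔL/+ (1.03 to 1.096) and 1.1005 times in RbΔL/ΔL (1.07 to 1.13), but 0.906 times in Rb-/- (0.880 to 0.933). With all satellites but GSAT_MM in place of SATMIN, the Rb-/- value turned to 1.03. The 3 comparisons use the same Rb+/+ library, so its counting error and any peculiarity of that library enter each of them.

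The higher level in the mutants depended on scaling for both repeats in RbΔL/+. For SATMIN in RbΔL/ΔL it was lost only as a share of satellite counts. For GSAT_MM it nearly vanished on that scale in every mutant. Setting the median of the 12 class ratios to input to 1 shifted RbΔL/+ by 0.16 on the log2 scale. GSAT_MM in RbΔL/+ then stood at 1.02 times Rb+/+ (1.01 to 1.02), and SATMIN at 0.960 times (0.9303 to 0.991), below Rb+/+. As a share of repeat counts only, SATMIN in RbΔL/+ was 1.02 times Rb+/+ (0.992 to 1.06). As a share of satellite counts, SATMIN lay below Rb+/+ in both ΔL genotypes, at 0.956 times in RbΔL/+ (0.927 to 0.987) and 0.9299 times in RbΔL/ΔL (0.902 to 0.959). In Rb-/- it stayed above, at 1.11 times (1.07 to 1.14). The GSAT_MM share of satellite counts was close to that of Rb+/+, at 1.002 times for the null library (1.001 to 1.003). With a single altered copy it was 1.01 times, and with both copies altered 1.02 times. GSAT_MM held 91.6% to 93.7% of the satellite counts in the γH2AX libraries, so its own share of them could change little in relative terms. The SATMIN share of satellite counts therefore mostly restates the count ratio of GSAT_MM to SATMIN and is not a separate result. Under the unique genome, all classes but satellites, repeat counts and the median class ratio as scalings, both repeats in RbΔL/ΔL and Rb-/- stayed above Rb+/+.

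**Figure D4:**
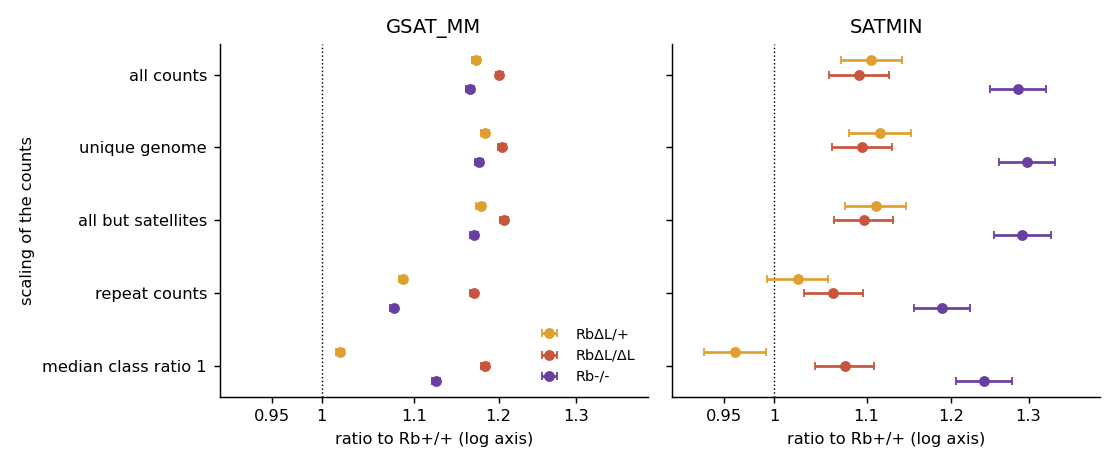
Points give the ratio of each mutant library to Rb+/+ for GSAT_MM (left) and SATMIN (right) on log axes, with 95% counting intervals, under the share of all counts and 4 other scalings. RbΔL/+ moves from 1.17 to 1.02 for GSAT_MM and from 1.11 to 0.960 for SATMIN when the median class ratio is set to 1, while RbΔL/ΔL and Rb-/- stay above 1 under these 5 scalings.

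Between the mutants, the major satellite differed little. GSAT_MM in RbΔL/ΔL, with both copies altered, was 1.02 times its level in RbΔL/+ (1.02 to 1.03), with a single altered copy. In Rb-/- it was 0.9701 times RbΔL/ΔL (0.966 to 0.974) and 0.993 times RbΔL/+ (0.989 to 0.998). With the median class ratio set to 1, the first of these became 1.16 and the last 1.104. SATMIN separated the null from the ΔL libraries by more, at 1.18 times RbΔL/ΔL (1.14 to 1.21) and 1.16 times RbΔL/+ (1.13 to 1.199). Between RbΔL/ΔL and RbΔL/+ the SATMIN ratio was 0.987 (0.956 to 1.02), so any difference there was within counting error, although it became 1.12 (1.08 to 1.16) with the median class ratio set to 1.

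Other repeats also differed between these libraries. For this comparison 18 features were used, namely the 11 classes other than satellites and the 7 satellite families with more than 3 counts, the 2 centromeric repeats among them, and a feature was counted as different past a ratio of 1.1 in either direction. In Rb+/+ against input both repeats were past it, beside 44.4% of all features, and both were lower, beside 33.3%. In RbΔL/+ against input it was 1 of the 2, GSAT_MM, beside 61.1% of features, and GSAT_MM was the single feature that was lower, 5.56% of all. In RbΔL/ΔL it was again GSAT_MM alone of the 2, beside 38.9% in either direction and 22.2% lower. In Rb-/- both were past 1.1, beside 66.7%, and 1 was lower, beside 27.8%.

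GSAT_MM was the lowest of the 18 features relative to input in RbΔL/+ and RbΔL/ΔL. The nearest feature above it was the satellite family SYNREP_MM, at 0.935 and 0.831 times the input. In Rb+/+ it took place 2 from the lowest, between the family ZP3AR at 0.509 and the class named other at 0.857. In Rb-/- it took place 4, between ZP3AR at 0.732 and the family IMPB_01 at 0.884. SATMIN lay nearer the middle. It took place 6 from the lowest in Rb+/+ (between MurSAT1 and tandem repeats) and 3 in RbΔL/+ (between SYNREP_MM and MMSAT4). In RbΔL/ΔL it took place 6 (between SINEs and LTR retrotransposons). In Rb-/- it took place 12 (between endogenous retroviruses and other transposable elements). The SATMIN interval in Rb+/+ (0.854 to 0.906) also held MurSAT1 at 0.876, on at most 316 counts, and other transposable elements at 0.874.

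Against Rb+/+ the 2 repeats lay among the other features. In RbΔL/+ both repeats were past 1.1, beside 77.8% of features, and both were higher, beside 61.1%. In RbΔL/ΔL it was GSAT_MM alone of the 2, beside 50% of features in either direction and 27.8% higher. SATMIN lay just short of the limit there, at 1.09, against 1.11 in RbΔL/+, and these 2 libraries did not differ in SATMIN beyond counting error. In Rb-/- both were past it and higher, beside 61.1% in either direction and 33.3% higher. GSAT_MM took place 11 of 18 from the lowest for RbΔL/+, 16 for RbΔL/ΔL and 14 for Rb-/-. SATMIN took places 9, 13 and 15 in the same order.

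**Figure D5:**
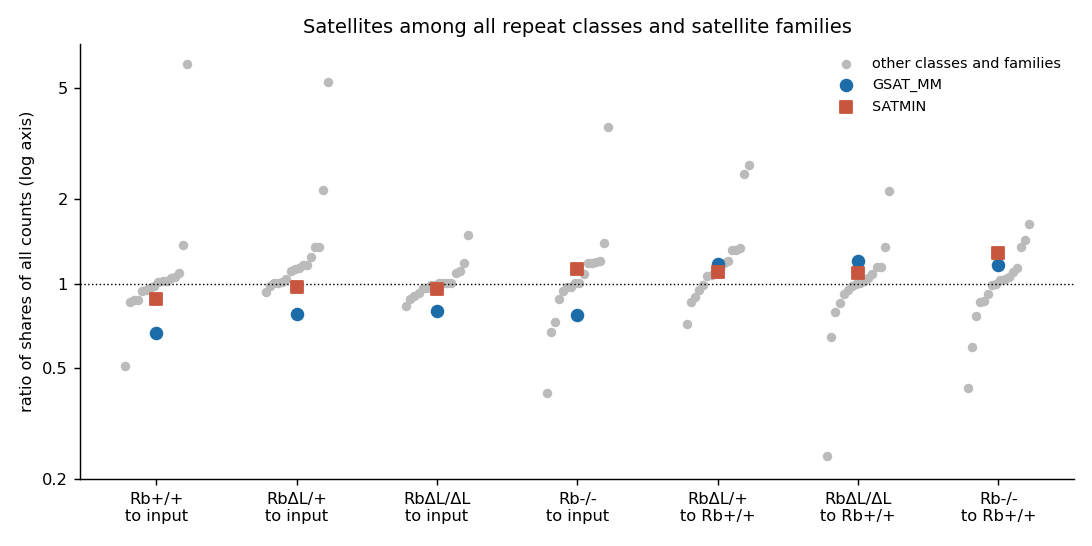
Each point is the ratio of the share of all counts of 1 of 18 repeat classes or satellite families between 2 libraries, on a log axis, for the 4 γH2AX libraries against input and the 3 mutants against Rb+/+. GSAT_MM lies at the low end against input, from 0.666 to 0.7997, and within the spread of the other features against Rb+/+.

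In percentage points, the share that GSAT_MM lacked in Rb+/+ against input lay mostly in the unique genome, at 1.09 points more, with LINEs (0.183) and the Pseudogene class (0.0584) as the repeat classes that gained most. Tandem repeats (-0.146) and SINEs (-0.00780) lost most among the other classes there. In RbΔL/+ against input the unique genome gained 0.289 points, endogenous retroviruses 0.277 and LINEs 0.0805, and no class other than satellites lost share. In RbΔL/ΔL the gain lay nearly all in the unique genome, at 0.820 points. LINEs (0.0176) and endogenous retroviruses (0.0161) gained most among repeat classes there, and tandem repeats (-0.0352) and SINEs (-0.0281) lost most. In Rb-/- LINEs gained 0.396 points, more than the unique genome at 0.261, followed by endogenous retroviruses at 0.169, while tandem repeats (-0.0587) and simple repeats (-0.00707) lost most.

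Against Rb+/+, the repeat classes that gained most in RbΔL/+ beside GSAT_MM were endogenous retroviruses (0.223 points) and tandem repeats (0.163), and LINEs (-0.103) and the Pseudogene class (-0.00962) lost most. For RbΔL/ΔL the gains were in tandem repeats (0.111) and the class named other (0.00275), and the losses in LINEs (-0.166) and the Pseudogene class (-0.0528). For Rb-/- LINEs (0.213) and endogenous retroviruses (0.114) gained most, and the Pseudogene class (-0.0282) and simple repeats (-0.0205) lost most.

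No other feature had ratios to input close to those of GSAT_MM. Likeness was taken as the root mean square difference in log2 ratio to input over the 4 γH2AX libraries, where 0 means the same ratio in each. DNA transposons (0.37) and tandem repeats (0.38) came nearest to GSAT_MM, followed by SATMIN (0.40). Nearest to SATMIN were tandem repeats (0.12) and other transposable elements (0.14). DNA transposons stood at 0.947 times the input for Rb+/+, 1.02 for RbΔL/+, 0.969 for RbΔL/ΔL and 0.941 for Rb-/-. Their lowest value was thus in Rb-/-, close to that of Rb+/+. Tandem repeats stood at 0.942 times the input for Rb+/+, 1.01 for RbΔL/+, 0.986 for RbΔL/ΔL and 0.977 for Rb-/-. Like GSAT_MM, they were thus lowest in Rb+/+, but they did not share the high SATMIN value of Rb-/-. Other transposable elements did share it, at 0.874, 1.17, 1.003 and 1.18 times the input in the same order.

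The authors also listed γH2AX peaks for each library, placed on the assembled genome. The first 10 Mb of a chromosome, the end that carries the centromere, held 5.29% of the 3857 peaks for Rb+/+ (4.60 to 6.04), 6.49% of 3789 for RbΔL/+ (5.73 to 7.32), 6.28% of 1976 for RbΔL/ΔL (5.25 to 7.44) and 5.76% of 1632 for Rb-/- (4.68 to 7.003). These intervals all overlapped one another, but overlap alone does not place a difference between 2 libraries within counting error. No interval for such a difference was computed. Over all listed peaks the order of the shares was not that of GSAT_MM or of SATMIN. On numbered autosomes only, the shares were 5.43% for Rb+/+, 6.15% for RbΔL/+, 6.46% for RbΔL/ΔL and 5.82% for Rb-/-. This was the order of GSAT_MM, but these intervals also overlapped one another. The satellite counts carry no coordinates, so the peaks cannot be tied to either repeat. The part of the assembled genome within the first 10 Mb was not computed, so no share can be read against an even spread.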

How the data were processed

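The authors deposited whole-number read counts for 12 repeat classes and 13 satellite families in each of 5 libraries, and a list of peaks with a score per peak for each γH2AX library. Bowtie 1.0, MACS 1.4.2 and the build mm9 are named, with no role, per the submitters' processing notes. How reads that fit several repeat copies or duplicates were treated is not given in the sources used here. In every library the satellite class equals the sum of its families. Peak lists follow the sample they were deposited with, although the number each carries is higher by 1 than that sample's label.

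Counts were divided by the library's total, or by its satellite counts. Shares have exact (Clopper-Pearson) 95% intervals, and ratios have 95% counting intervals on the log ratio. Coverage of the ratio intervals was checked only on counts simulated as independent, which is what the intervals assume. The check therefore does not cover repeated molecules or 2 counts per fragment. No test between genotypes was run, with 1 library in each. The satellites, the named features (neighbours of a member in the order, classes with the largest gains and losses, nearest features) and the comparisons were chosen with earlier results of these data known. Alternatives were 4 other scalings, intervals with 2 counts per fragment, other numerators and denominators of the count ratio, and other limits for peaks. The Rb locus itself was not examined. Python 3.11.15 was used with scipy 1.17.1, pandas 2.3.3, numpy 2.4.6 and matplotlib 3.10.9.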

Additional observations from a re-analysis of the deposited data

Results flagged for a closer look

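The minor satellite, SATMIN, took opposite sides of the input in Rb+/+ and Rb-/-, with both intervals clear of 1. As a share of all counts it was 0.879 times the input for Rb+/+ and 1.13 times for Rb-/-. The difference between the genotypes was not tested, since each had 1 library. With repeat counts only as the denominator, the Rb+/+ value was 0.974 (0.945 to 1.003). As a share of satellite counts both lay above the input, at 1.28 and 1.42. The pattern was not particular to SATMIN. As shares of all counts, other transposable elements stood at 0.874 times the input for Rb+/+ and 1.18 for Rb-/-. The class named other stood at 0.857 and 1.397 times, whereas tandem repeats stayed below the input in both, at 0.942 and 0.977.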

How the results depend on the processing

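Intervals cover counting error in single libraries, and SATMIN, on 7022 to 9937 counts, sets the precision of the count ratios. With 2 counts per fragment 26 of 30 ratio intervals lay clear of 1, against 28, and those of SATMIN in RbΔL/ΔL to input and of the count ratio in RbΔL/ΔL to RbΔL/+ then included it. No paired analysis was possible because each group had 1 library. The cause of the changes below was not tested, and results not named for a setting stayed within their intervals.

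With the unique genome as denominator, GSAT_MM was 0.658 (Rb+/+) and 0.792 (RbΔL/ΔL) of input, 1.18 (RbΔL/+) and 1.176 (Rb-/-) of Rb+/+, 1.018 for RbΔL/ΔL to RbΔL/+ and 0.976 for Rb-/- to RbΔL/ΔL. With all classes but satellites, in the order Rb+/+, RbΔL/+, RbΔL/ΔL and Rb-/-, it was 0.657, 0.774, 0.793 and 0.769 of input, and the mutants were 1.18, 1.207 and 1.17 of Rb+/+.

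With repeat counts only, GSAT_MM in that order was 0.737, 0.801, 0.863 and 0.794 of input, and the mutants were 1.087, 1.17 and 1.077 of Rb+/+. It was 1.076 for RbΔL/ΔL to RbΔL/+ and 0.921 for Rb-/- to RbΔL/ΔL. SATMIN was 0.974 of input in Rb+/+ and turned to 1.04 in RbΔL/ΔL. It was 1.02 (RbΔL/+) and 1.19 (Rb-/-) of Rb+/+, 1.04 for RbΔL/ΔL to RbΔL/+ and 1.12 for Rb-/- to RbΔL/ΔL.

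With the median class ratio set to 1, GSAT_MM was 0.685, 0.698, 0.811 and 0.771 of input, and the mutants were 1.02, 1.18 and 1.13 of Rb+/+. It was 1.16 for RbΔL/ΔL to RbΔL/+, 0.951 for Rb-/- to RbΔL/ΔL and, turned, 1.104 for Rb-/- to RbΔL/+. SATMIN was 0.869 of input in RbΔL/+, turned to 0.960 of Rb+/+ in RbΔL/+, and was 1.24 of Rb+/+ in Rb-/-, 1.29 for Rb-/- to RbΔL/+ and 1.12 for RbΔL/ΔL to RbΔL/+.

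With all satellites but GSAT_MM in place of SATMIN, the count ratio was 0.658 (Rb+/+) and 0.903 (RbΔL/ΔL) of input. It was 1.21 (RbΔL/+), 1.372 (RbΔL/ΔL) and, turned, 1.03 (Rb-/-) of Rb+/+, 1.14 for RbΔL/ΔL to RbΔL/+ and 0.748 for Rb-/- to RbΔL/ΔL. The first 5 Mb held 1.76%, 2.64%, 1.77% and 1.90% of peaks in Rb+/+, RbΔL/+, RbΔL/ΔL and Rb-/-, and the first 20 Mb held 12.3%, 12.4%, 12.7% and 13.3%. In RbΔL/+, 11.5% of peaks with a score of 100 or more lay in the first 10 Mb.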
